A study of Mus musculus with 14 samples.

Results

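Transcription factors that pattern the embryonic brain were followed in the cerebellum, cerebral cortex and hippocampus of mice. The group holds 33 genes, listed by symbol, out of 48440 genes in the count table. Each symbol was matched to 1 Ensembl identifier. They fall into 9 telencephalic pallial factors, 10 ventral forebrain and interneuron factors, and 14 midbrain, hindbrain and cerebellar factors. The rule that lists them uses no measured value, but the genes were chosen with earlier results of these data known. The study sequenced bulk total RNA of CARIP-/- mice (knockout below) and wild-type mice, all C57BL/6, with 7 libraries of each genotype. For each genotype there were 3 libraries of cerebellum, 2 of cerebral cortex (titled Cerebrum) and 2 of hippocampus. The sources used here give no treatment, age or sex of the mice, nor how the knockout was made.

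In the embryo, signalling centres divide the neural tube into domains that each express their own combination of homeobox, paired-box, T-box and zinc-finger factors. Emx1, Emx2, Lhx2 and Pax6 act in the dorsal telencephalon that forms cortex and hippocampus, Dlx genes and Nkx2-1 in the ventral telencephalon where cortical interneurons are born, and En1, Pax2, Irx, Zic and Lhx1/Lhx5 genes around the midbrain-hindbrain boundary and in the cerebellar primordium. Some of these factors are kept by mature neurons, such as Pax6 in cerebellar granule cells and Lhx1 and Lhx5 in Purkinje cells, while others, such as Atoh1 and Ptf1a, mark progenitors. In bulk tissue, fewer cells of a type and less RNA per cell cannot be told apart.

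Promoter sequence is shown for 4 members that stand for the patterns described here: Barhl2, read in the cerebellum; Lhx2 and Dlx2, read in the forebrain regions; and Ptf1a, read in no library. Each line gives the 250 bases before the start of the gene, 5′ to 3′ on the strand of the gene, from RefSeq on GRCm38.p6, with CG pairs in capitals. The windows lie at chr5:106458167-106458416 on the minus strand (Barhl2), chr2:38339031-38339280 on the plus strand (Lhx2), chr2:71546755-71547004 on the minus strand (Dlx2) and chr2:19445413-19445662 on the plus strand (Ptf1a).
Barhl2: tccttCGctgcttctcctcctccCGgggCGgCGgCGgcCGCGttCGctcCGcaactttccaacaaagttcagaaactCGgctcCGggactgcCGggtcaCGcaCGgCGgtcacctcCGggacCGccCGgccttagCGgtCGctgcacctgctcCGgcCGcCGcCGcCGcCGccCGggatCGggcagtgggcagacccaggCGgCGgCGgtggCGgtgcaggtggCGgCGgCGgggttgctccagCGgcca
Lhx2: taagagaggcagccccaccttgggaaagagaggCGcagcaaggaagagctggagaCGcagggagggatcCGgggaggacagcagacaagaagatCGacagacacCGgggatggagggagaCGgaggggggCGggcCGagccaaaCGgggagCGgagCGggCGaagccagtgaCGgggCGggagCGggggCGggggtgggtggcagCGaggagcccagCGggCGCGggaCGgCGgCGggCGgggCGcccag
Dlx2: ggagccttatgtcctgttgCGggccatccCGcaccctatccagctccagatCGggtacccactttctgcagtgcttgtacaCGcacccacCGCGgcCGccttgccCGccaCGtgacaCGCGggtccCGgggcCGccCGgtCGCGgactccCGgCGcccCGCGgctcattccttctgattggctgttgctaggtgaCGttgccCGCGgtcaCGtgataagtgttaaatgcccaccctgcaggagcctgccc
Ptf1a: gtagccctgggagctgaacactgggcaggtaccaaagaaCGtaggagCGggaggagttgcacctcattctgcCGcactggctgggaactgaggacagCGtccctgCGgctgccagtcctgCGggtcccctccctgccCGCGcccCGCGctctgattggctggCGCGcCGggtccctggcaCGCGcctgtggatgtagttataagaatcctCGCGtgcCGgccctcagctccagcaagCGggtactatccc
They hold 36, 25, 24 and 19 CG pairs, in that order, and the window of the unread Ptf1a thus lies above the members' median, which follows. RefSeq windows were found for 26 of the 33 members, 33 windows in all. The member windows held a median of 15 CG pairs against a median of 6 over all 32851 windows of the same length, and 12 of them (36.4%) held at least 20, against 17.9% of all windows. The homeodomain core TAATTA, which reads the same on both strands, was present in 1 member window and in 4.84% of all windows. A match or its absence describes these letters alone.

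Libraries held 20.1 to 38.8 M counted reads, with a median of 24.7 M. Levels are CPM, read counts scaled to a common library size. CARIP is named by none of the gene symbols and aliases at hand, and its transcript was not checked. Tissue identity was read from marker genes: the summed level of 10 cerebellar neuron markers was 4070 to 6910 CPM in the cerebellum against at most 316 CPM elsewhere, and 9 markers of cortical excitatory neurons summed to 1350 to 2230 CPM in the cortex against at most 583 CPM elsewhere. The sum of 10 hippocampal markers, at 508 to 899 CPM in the hippocampus, was 197 to 374 CPM in the cortex but 473 to 711 CPM in the cerebellum, where Calb1, also a Purkinje cell gene, held 328 to 567 CPM of it. Grp was alike in cortex and hippocampus, and Lct lay at 56.6 to 111 CPM in the hippocampus and at no more than 3.77 CPM in any other library. No label says that libraries of a group came from separate mice, so p-values measure the spread between libraries, which may be technical.

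3 libraries stood apart in the patterning factors themselves and are named before the results. In knockout cortex library 2, 23 of the 31 members with at least 10 reads in a cortical library were highest among the 4 cortical libraries, and 18 exceeded the next library by more than 2 times. Those 18 were Lhx9, Eomes, Nr2f2, Dlx5, Nkx2-1, Six3, Meis1, En1, Pax2, Pax3, Irx1, Irx2, Irx3, Irx5, Lhx1, Lhx5, Barhl2 and Zic4. The same counts were not made over all genes, so they do not show a trait particular to the members. Six3, a factor of the rostral forebrain, had 15 CPM in it and 0 to 0.17 CPM in the other 3 cortical libraries. The cortical factor Emx1 was lowest there, at 6.56 CPM against 11.0 to 15.9 CPM. The same library had 1300 CPM over 11 striatal markers against 250 to 366 CPM in the other 3, 780 CPM over 9 thalamic markers against 143 to 163 CPM, 59.6 CPM over 9 hypothalamic markers against 5.79 to 7.32 CPM, 78.8 CPM over 8 midbrain and brainstem markers against 11.5 to 15.4 CPM, and 602 CPM over 9 choroid plexus markers against 18.3 to 36.8 CPM. All 11 striatal, all 9 thalamic, all 9 choroid plexus and 8 of 9 hypothalamic markers were highest in it. Among them were Pmch, a hypothalamic neuropeptide gene, at 12.2 CPM against at most 0.153 CPM, and Drd2, a striatal dopamine receptor, at 44.3 CPM against at most 1.27 CPM. Its 9 cortical excitatory markers summed to 1350 CPM against 2220 to 2230 CPM. Choroid plexus markers also set other libraries apart within their regions. Wild-type hippocampus 2 had 1160 CPM of them against 86.2 to 137 CPM in the other hippocampal libraries. Wild-type cerebellum 1 had 35.4 CPM against 660 to 1410 CPM in the other cerebellar libraries.

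Cerebellar libraries 2 of both genotypes differed from the other 4 cerebellar libraries in the same way. Of 25 members with at least 10 reads in a cerebellar library, 11 were higher in both than in any of the other 4 (Lhx2, Lhx9, Otx1, Nr2f2, Sp8, Six3, Meis2, Pax2, Irx2, Irx3 and Irx5) and 7 were lower (Pax6, Meis1, Pax3, Lhx1, Barhl2, Zic4 and Zic5). Meis2, a TALE homeobox factor, showed this most plainly, with 69.4 CPM in wild-type library 2, 41.8 CPM in knockout library 2 and 2.56 to 5.71 CPM in the other 4. Some gaps were small: knockout library 2 had 10.6 CPM of Pax2 against at most 10.2 CPM in the other 4, and 2.87 CPM of Irx5 against at most 2.81 CPM. Sp8 rested on 2 reads in knockout library 2. These counts, too, were not made over all genes. Midbrain and brainstem markers summed to 220 CPM in wild type 2 and 158 CPM in knockout 2 against 40.9 to 47.3 CPM, and oligodendrocyte markers to 8930 and 4300 CPM against 2260 to 3270 CPM. Chat, which defines cholinergic neurons, was at 6.07 and 4.74 CPM against 0 CPM in all of the other 4. Cerebellar neuron markers summed to 4070 and 4390 CPM against 5330 to 6910 CPM. The part of these marker genes in the results was not tested. For the members, results that rest on the 3 libraries are given with and without them. The libraries were set apart by values of these same members, so fits without them are no independent test of the members.

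**Figure D1:**
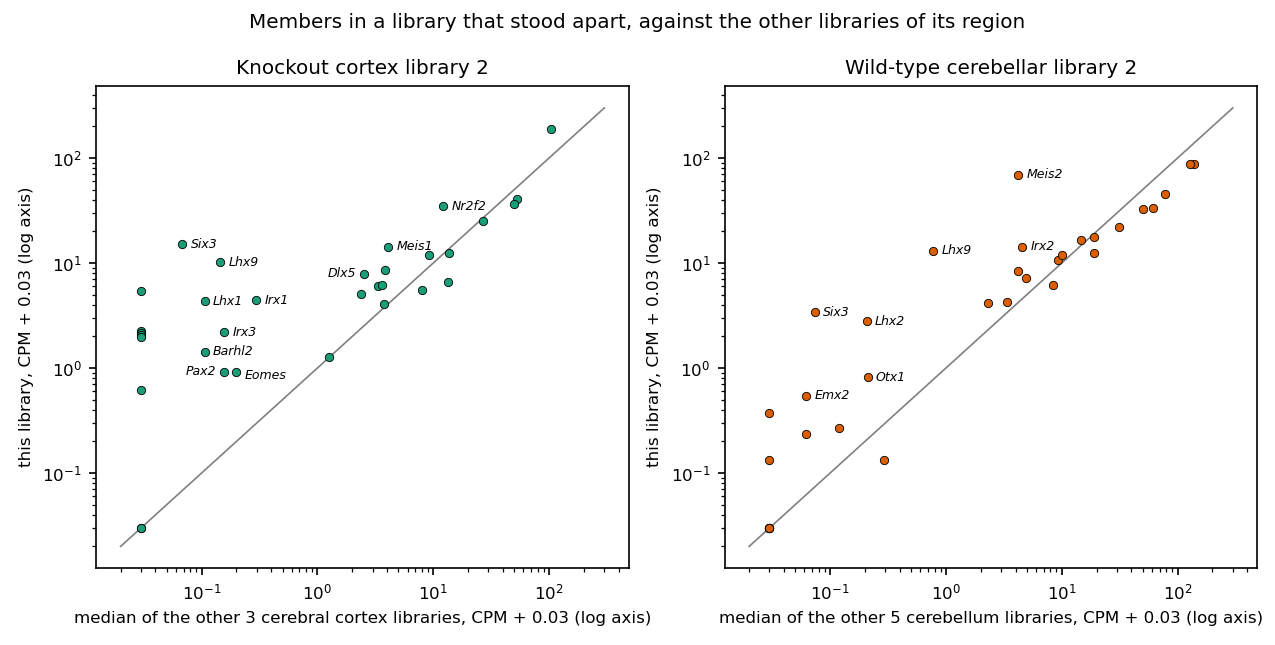
Level of the 33 members in knockout cortex library 2 (left) and in wild-type cerebellar library 2 (right), each against the median of the other libraries of the same region, in CPM + 0.03 on log axes; the line marks equal levels. Six3, at 15 CPM on the left, and Meis2, at 69.4 CPM on the right, lie far above the line.

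The first question was which members differ between the regions, with the mean of both genotypes compared. Of the 33, 31 passed the filter on low counts. Against the cortex, 15 of 31 members were higher in the cerebellum and 12 were lower, by edgeR's quasi-likelihood test with a Benjamini-Hochberg adjusted p under 0.05, where 23.0% and 25.3% of all 24680 genes tested were called higher and lower (48.4% in either direction). Against the hippocampus the counts were again 15 and 12, beside 22.6% and 24.7% of all genes. The median log2 difference was 2.14 over the 31 members against 0.01 over all genes in the first comparison, and 0.48 against 0.02 in the second. Fewer were called between the 2 forebrain regions. No member was called higher in the hippocampus and 2 were called lower, beside 5.49% and 6.48% of all genes, with a median log2 difference of -0.04 over members and 0.0 over all genes.

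By role, all 12 midbrain, hindbrain and cerebellar factors that were tested rose in the cerebellum against both other regions, with median log2 differences of 4.69 and 4.84. Of the 9 pallial factors, 5 fell and 2 rose (Pax6 and Eomes) in both comparisons. Among the 10 ventral forebrain factors, 7 fell and 1 rose (Meis1) in each comparison. The 7 were not the same genes: Meis2 fell only against the cortex and Nkx2-1 only against the hippocampus.

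A member was called specific to a region when it passed the test against both other regions with a log2 difference of at least 2 in each and no library of another region reached its lowest library. By this rule 12 members were specific to the cerebellum, beside 2.56% of all genes: Barhl2, Eomes, Irx3, Irx5, Lhx1, Lhx5, Meis1, Pax2, Pax3, Pax6, Zic4 and Zic5. En1, Irx1 and Irx2 passed both tests but overlapped with a cortical library, and are called enriched (14.2% of all genes). A further 9 were lower in the cerebellum than in both forebrain regions, beside 15.7% of all genes: Dlx1, Dlx2, Dlx5, Dlx6, Emx1, Emx2, Lhx2, Sp8 and Sp9. Nr2f1 and Otx1 were enriched in the cortex, a class with 3.11% of all genes. No member was specific to the cortex (0.434% of all genes) or to the hippocampus (0.628%), none was enriched in the hippocampus (3.04%) or depleted in the cortex (1.05%) or hippocampus (1.56%), and Lhx9, Meis2, Nkx2-1, Nr2f2 and Six3 took no order among the regions (57.7%).

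**Figure D2:**
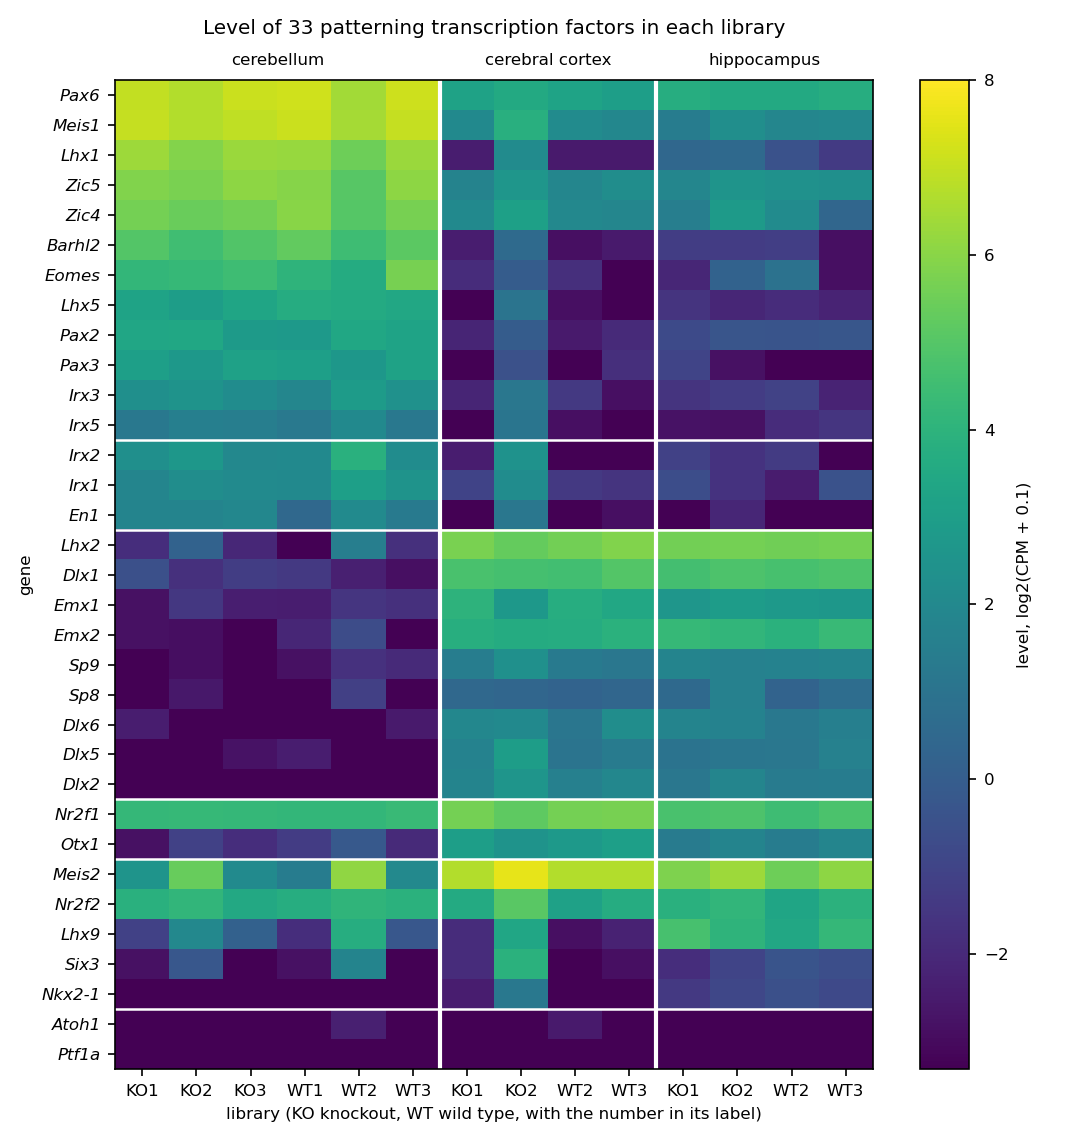
Level of the 33 members (rows, ordered by region class) in the 14 libraries (columns), as log2(CPM + 0.1) on a colour scale. The 12 members specific to the cerebellum form the lighter block at the upper left, and knockout cortex library 2 and cerebellar libraries 2 differ in shade from their neighbours.

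Among the cerebellar factors, Lhx1, a LIM-homeobox factor of Purkinje cells, had the highest level per length. The gene lies on chromosome 11 at 84518284 to 84525535 (GRCm38), and its level per kilobase of exon in the cerebellum was 17.2 CPM, followed by Barhl2 (13.0), Zic5 (11.6), Meis1 (11.1) and Pax6 (10.5). Lhx1 ranged from 45.6 to 81.7 CPM over the 6 cerebellar libraries, with a median of 77.0 CPM. In the cortex it had 0.0849 and 4.3 CPM in knockout 1 and 2 and 0.0766 and 0.0761 CPM in wild type 2 and 3. In the hippocampus the knockouts had 1.29 and 1.35 CPM and the wild types 0.629 and 0.275 CPM. The groups did not overlap, cerebellar libraries 2 were the lowest of their region, and knockout cortex library 2 was the highest outside the cerebellum. Lhx1 was higher in the cerebellum by 7.33 ± 0.77 (SE) on the log2 scale than in the cortex (adjusted p = 3.4e-05) and by 6.49 ± 0.69 than in the hippocampus (adjusted p = 3.7e-05). Its relative Lhx5 was lower in level, at 10.5 ± 1.80 CPM (SD, n = 6) in the cerebellum against 0.492 ± 0.959 in the cortex and 0.16 ± 0.047 in the hippocampus (n = 4 each). Lhx5 was higher in the cerebellum by 6.05 ± 0.81 than in the cortex (log2, adjusted p = 0.0001) and by 5.99 ± 0.75 than in the hippocampus (adjusted p = 6.4e-05).

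Barhl2, a homeobox factor of the rhombic lip and diencephalon, ranged from 22 to 38.3 CPM in the cerebellum, with a median of 30.8 CPM. In the cortex it had 0.0849, 1.40, 0.0383 and 0.0761 CPM (knockout 1, knockout 2, wild type 2, wild type 3) and in the hippocampus 0.312, 0.305, 0.335 and 0.0393 CPM in the same order. The lowest cerebellar library thus lay above every other library, and the cortex was at these low levels in all but knockout 2. The difference was 7.07 ± 0.60 on the log2 scale against the cortex (adjusted p = 4.1e-06) and 6.95 ± 0.59 against the hippocampus (adjusted p = 3.5e-06).

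The zinc-finger genes Zic4 and Zic5, neighbours of other Zic genes in the genome and active in the cerebellar primordium, were present in all regions. Zic5 had 56.8 ± 12.7 CPM (SD, n = 6) in the cerebellum, 4.40 ± 1.27 in the cortex and 4.85 ± 0.916 in the hippocampus (n = 4 each). Zic4 had 48.1 ± 10.1, 5.03 ± 2.38 and 3.86 ± 2.53 CPM. Zic5 was higher in the cerebellum by 3.68 ± 0.26 than in the cortex (log2, adjusted p = 4.2e-07) and by 3.55 ± 0.26 than in the hippocampus (adjusted p = 4.6e-07), and Zic4 by 3.30 ± 0.40 (adjusted p = 7.1e-05) and 3.70 ± 0.42 (adjusted p = 3.6e-05). Their differences of 3.30 to 3.70 on the log2 scale were the smallest among the midbrain, hindbrain and cerebellar factors specific to the cerebellum, apart from Irx3 against the cortex, at 3.57 ± 0.63. Exons of Zic4 share 60 bases with Zic1, which was read at 604 CPM in the cerebellum, and whether counting used strand is not given in the sources used here, so part of the Zic4 reads may belong to Zic1.

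Pax2, a paired-box factor of the midbrain-hindbrain boundary and of cerebellar inhibitory interneuron precursors, ranged from 6.93 to 10.7 CPM in the cerebellum, with a median of 9.74 CPM. Cortical libraries had 0.127, 0.891, 0.0766 and 0.152 CPM and hippocampal libraries 0.491, 0.698, 0.671 and 0.708 CPM. No library of either forebrain region came near the cerebellar range, and knockout cortex library 2 was above the other cortical libraries. Pax2 was higher in the cerebellum by 5.17 ± 0.42 than in the cortex (log2, adjusted p = 8.4e-07) and by 3.82 ± 0.38 than in the hippocampus (adjusted p = 3.6e-06). Pax3, a paired-box factor of the dorsal neural tube, had 6.18 to 9.07 CPM in the cerebellum and no more than 0.594 CPM elsewhere, with 0 reads in 4 of the 8 forebrain libraries. Its differences were 5.43 ± 0.71 against the cortex (adjusted p = 0.00012) and 7.88 ± 0.96 against the hippocampus (adjusted p = 6.8e-05).

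The Iroquois homeobox genes Irx1, Irx2, Irx3 and Irx5, which act in midbrain and hindbrain patterning, were low but plainly read in the cerebellum, at means of 5.03, 6.31, 5.15 and 2.75 CPM. In the hippocampus their means lay between 0.123 and 0.367 CPM. The cortex was split by library: Irx2 had 5.34 CPM in knockout 2, 0.0849 CPM in knockout 1 and 0 CPM in both wild types. Irx3 had 2.17 CPM in knockout 2 against 0.0381 to 0.268 CPM in the other 3, and Irx5 2.02 CPM against 0 to 0.0383 CPM. Irx3 was higher in the cerebellum than in the cortex by 3.57 ± 0.63 (log2, adjusted p = 0.00059) and than in the hippocampus by 4.31 ± 0.66 (adjusted p = 0.00021), and Irx5 by 4.12 ± 0.88 (adjusted p = 0.0023) and 4.78 ± 0.87 (adjusted p = 0.0008). Knockout cortex 2 reached the cerebellar range for Irx1 and Irx2 and lay below it for Irx3 and Irx5. En1, the engrailed homeobox factor of the midbrain-hindbrain boundary, had 1.32 to 4.23 CPM in the cerebellum, 2.14 CPM in knockout cortex 2, at most 0.0381 CPM in the other 3 cortical libraries and 3 reads in all 4 hippocampal libraries. The ratio of its CPM in the cerebellum to that in the hippocampus was 97.7, with an exact 95% interval of 33.2 to 475 that covers counting error alone. In the knockout libraries alone En1, Irx1, Irx2, Irx3, Irx5 and Lhx5 took no order among the regions. Without the 3 libraries that stood apart, En1, Irx1 and Irx2 also met the rule for cerebellum-specific genes. These genes are among those by which knockout cortex library 2 was set apart, so this followed largely from leaving it out.

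The 2 progenitor factors of the list were hardly read. Ptf1a, which specifies inhibitory neurons of the cerebellum, had 0 reads in all 14 libraries, which allows up to 0.0196 CPM over the cerebellar, 0.0274 CPM over the cortical and 0.0317 CPM over the hippocampal libraries (3 reads per region). Atoh1, which specifies granule cell progenitors, had 3 reads in wild-type cerebellum 2 and 2 reads in wild-type cortex 2, and none elsewhere. Neither passed the filter on low counts, so neither was tested.

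Pax6, Eomes and Meis1 are listed with the forebrain factors and were specific to the cerebellum. Pax6, a paired-box factor of cortical progenitors and of cerebellar granule cells, ranged from 87.4 to 144 CPM in the cerebellum, with a median of 132 CPM. It had 9.21, 11.8, 9.46 and 7.96 CPM in the cortex and 13.1, 11.8, 11.7 and 13.0 CPM in the hippocampus. Cerebellar libraries 2 were the lowest of their region, yet the groups did not overlap. The differences were 3.69 ± 0.17 against the cortex (log2, adjusted p = 8.6e-09) and 3.31 ± 0.17 against the hippocampus (adjusted p = 1.2e-08). Meis1, a TALE homeobox factor, had 117 ± 18.5 CPM (SD, n = 6) in the cerebellum, 6.55 ± 5.10 in the cortex and 3.68 ± 0.891 in the hippocampus (n = 4 each). The differences were 4.27 ± 0.35 against the cortex (log2, adjusted p = 3.2e-06) and 4.99 ± 0.37 against the hippocampus (adjusted p = 1.3e-06). Its exons overlap those of other annotated genes, of which Gm37818 was read at 9.86 CPM in the cerebellum. Eomes, the T-box factor of cortical intermediate progenitors and cerebellar unipolar brush cells, varied most between libraries: wild-type cerebellum 3 had 51.2 CPM and the other 5 had 12.5 to 22.5 CPM. Forebrain libraries had at most 1.80 CPM of it. The cerebellum was higher by 6.59 ± 1.0 than the cortex (adjusted p = 0.00041) and by 4.93 ± 0.87 than the hippocampus (adjusted p = 0.001). In the wild-type libraries alone Eomes took no order among the regions.

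**Figure D3:**
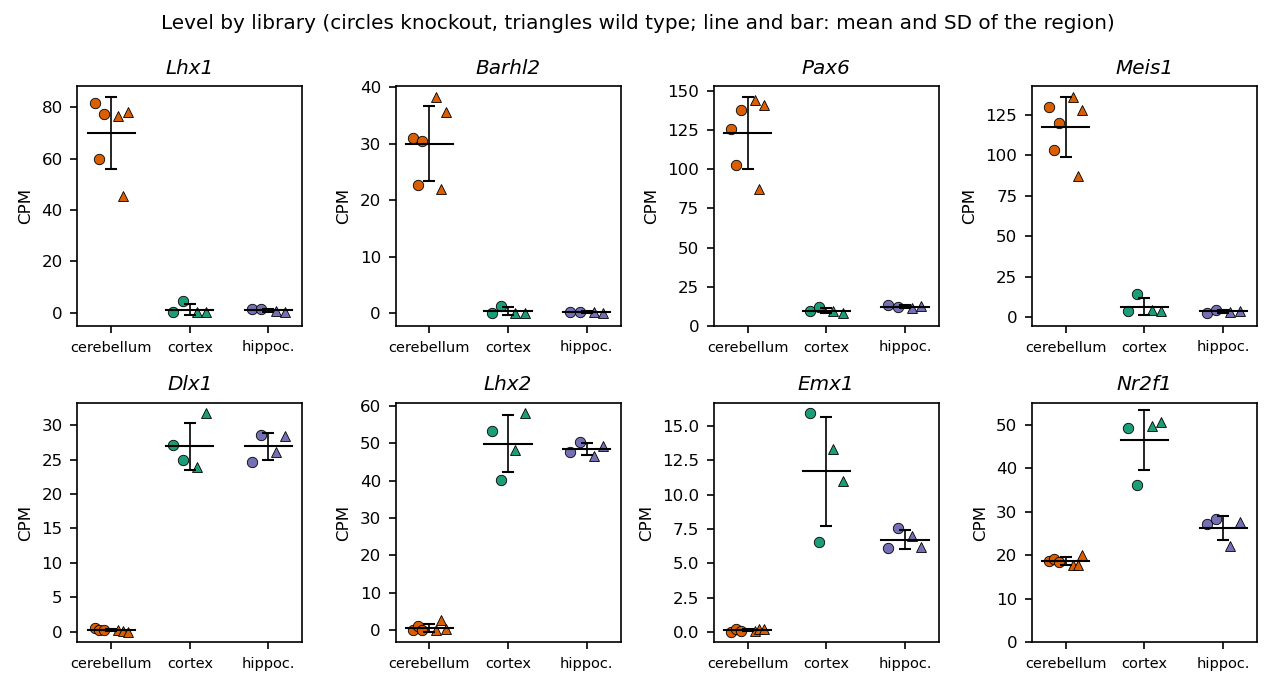
CPM of 8 members by region, with circles for knockout and triangles for wild-type libraries and the mean and SD over all libraries of a region as bars. Lhx1, Barhl2, Pax6 and Meis1 are separated upward in the cerebellum, Dlx1, Lhx2 and Emx1 downward, and Nr2f1 lies lowest in the cerebellum (17.7 to 20.1 CPM) and highest in the cortex.

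Of the pallial factors, Lhx2, a LIM-homeobox selector gene of cortical identity, had the highest level per length in both forebrain regions, at 11.4 CPM per kilobase in the cortex and 11.0 in the hippocampus. Cortical libraries had 53.2, 40.3, 48.2 and 58.0 CPM and hippocampal libraries 47.8, 50.3, 46.5 and 49.4 CPM. In the cerebellum Lhx2 ranged from 0 to 2.76 CPM, with a median of 0.187 CPM, and its highest values were those of libraries 2, at 2.76 CPM in wild type and 1.07 CPM in knockout. It was lower in the cerebellum by 6.09 ± 0.70 than in the cortex (adjusted p = 7.6e-05) and by 6.05 ± 0.70 than in the hippocampus (adjusted p = 7.5e-05), on the log2 scale. Between hippocampus and cortex Lhx2 differed by -0.04 ± 0.62 (adjusted p = 0.98).

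Emx1 and Emx2 are homeobox factors of the dorsal telencephalon. Emx1 had 15.9, 6.56, 13.3 and 11.0 CPM in the cortex and 6.15, 7.59, 6.96 and 6.18 CPM in the hippocampus, so that knockout cortex 2 alone overlapped with the hippocampus. The hippocampus-minus-cortex difference of -0.79 ± 0.30 on the log2 scale did not pass (adjusted p = 0.12). Leaving out the 3 libraries that stood apart gave -1.05 ± 0.17 (adjusted p = 0.00055), and Emx1 was then enriched in the cortex. Emx2 had 12.3 to 15 CPM in the cortex and 15.1 to 20.3 CPM in the hippocampus, with a difference of 0.42 ± 0.34 (adjusted p = 0.51). Both were at most 0.512 CPM in the cerebellum. Emx2 exons, 3002 bases in all, share 264 bases with the antisense gene Emx2os, read at 6.07 CPM in the cortex and 14.9 CPM in the hippocampus. Within the shared bases, reads of the pair cannot be told apart without strand.

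Nr2f1 and Otx1 were the members enriched in the cortex. Nr2f1, the nuclear receptor COUP-TFI that patterns cortical areas, had 49.2, 36.2, 49.7 and 50.7 CPM in the cortex, 27.1, 28.3, 22.1 and 27.6 CPM in the hippocampus and 17.7 to 20.1 CPM in the cerebellum. No library of a region overlapped with another region. Nr2f1 was lower by 0.82 ± 0.11 (log2) in the hippocampus than in the cortex (adjusted p = 0.00042) and by 1.31 ± 0.10 in the cerebellum than in the cortex (adjusted p = 5.1e-07). Otx1, a homeobox factor of deep-layer cortical neurons, had 7.98, 5.49, 6.78 and 8.22 CPM in the cortex, 2.5, 3.4, 2.6 and 3.46 CPM in the hippocampus and at most 0.785 CPM in the cerebellum. Its hippocampus-minus-cortex difference of -1.25 ± 0.38 lay at the threshold, with an adjusted p that rounds to 0.05. With replicate numbers as a block it was -1.26 ± 0.43 (adjusted p = 0.1). It also missed the threshold when any of these libraries was left out: cerebellar knockout 3 or wild type 1, cortical knockout 1, wild type 2 or wild type 3, or any of the 4 hippocampal libraries. With the 3 libraries that stood apart left out, the difference was -1.37 ± 0.23 (adjusted p = 0.00074). Antisense A830082K12Rik, which shares 123 exon bases with Nr2f1, moved with it, at 39.2 CPM in the cortex, 20.8 in the hippocampus and 17.6 in the cerebellum.

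Lhx9 and Nr2f2 took no place in this order with all libraries. Lhx9, a LIM-homeobox factor related to Lhx2, had 25.8, 16.4, 10.8 and 18.3 CPM in the hippocampus. In the cortex it had 0.17, 10.2, 0.0383 and 0.114 CPM, and in the cerebellum 13.0 CPM in wild type 2, 3.74 CPM in knockout 2 and 0.177 to 1.04 CPM in the other 4. Its high values outside the hippocampus were thus those of the 3 libraries that stood apart. With all libraries the hippocampus-minus-cortex difference was 4.74 ± 1.58 (log2, adjusted p = 0.09). Without the 3 libraries it was 7.19 ± 0.61 (adjusted p = 2.4e-05), the cerebellum-minus-hippocampus difference was -4.91 ± 0.40 (adjusted p = 2.9e-06), and Lhx9 was specific to the hippocampus. Lhx9 is among the members by which these libraries were set apart, so this change followed largely from leaving them out. Nr2f2, the nuclear receptor COUP-TFII of the caudal ganglionic eminence, lay between 8.81 and 17.3 CPM in 13 libraries of all 3 regions and at 34.6 CPM in knockout cortex 2. Its 3 region differences were within 0.16 on the log2 scale.

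The ventral forebrain factors were led by Dlx1, the distal-less homeobox factor kept by many cortical interneurons. It had 27.1, 24.9, 23.9 and 31.7 CPM in the cortex and 24.6, 28.5, 26.1 and 28.4 CPM in the hippocampus, against 0.0393 to 0.575 CPM, with a median of 0.229 CPM, in the cerebellum. The 2 forebrain regions overlapped fully and the cerebellum lay far below both. The cerebellum was lower by 6.94 ± 0.27 than the cortex (log2, adjusted p = 2e-09) and by the same 6.94 ± 0.27 than the hippocampus (adjusted p = 1.3e-09), with a hippocampus-minus-cortex difference of 0 ± 0.21. Dlx2, its neighbour in the genome on chromosome 2 (71543408 to 71546754), had 3.31, 5.97, 2.99 and 3.69 CPM in the cortex and 2.14, 3.49, 2.52 and 2.60 CPM in the hippocampus, and 0 reads in all 6 cerebellar libraries. Against the limit of 3 reads over the cerebellum, Dlx2 was at least 211-fold higher in the cortex and at least 137-fold higher in the hippocampus. Dlx5 and Dlx6, the other linked pair, had 3 and 4 reads over the 6 cerebellar libraries. Dlx5 was 213 times higher in the cortex than in the cerebellum by the ratio of CPM. The exact 95% interval for counting error was 72.4 to 1040. In the hippocampus Dlx5 was 118 times higher (39.7 to 575). Knockout cortex library 2 raised the cortical ratio, with 7.87 CPM of Dlx5 against 1.95 to 3.18 CPM in the other cortical libraries. These still lay above the cerebellar libraries, which had at most 0.0883 CPM. Knockout cortex library 2 was also the highest cortical library for Dlx2, at 5.97 CPM. The cortical folds of Dlx2 and Dlx5 were not computed without it.

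Sp9 and Sp8, zinc-finger factors of ventral forebrain neuroblasts and interneurons, followed the Dlx genes at lower levels. Sp9 had 3.05 ± 1.33 CPM (SD, n = 4) in the cortex, 3.22 ± 0.13 in the hippocampus (n = 4) and 0.073 ± 0.0867 in the cerebellum (n = 6). Sp8 had 1.22 ± 0.085, 1.77 ± 0.843 and 0.0676 ± 0.137 CPM. Sp9 shares 270 exon bases with Cir1, which was read at 15.3 to 18.5 CPM in every region. Levels of these 6 members, Dlx1, Dlx2, Dlx5, Dlx6, Sp8 and Sp9, thus separated cerebellum from forebrain, and none of them passed the test between hippocampus and cortex (adjusted p of 0.29 to 1). The rest of the ventral forebrain list did not follow them: Meis1 was specific to the cerebellum, and Meis2, Nkx2-1 and Six3 took no order with all libraries.

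Meis2, Six3 and Nkx2-1 had their highest cortical values in knockout library 2, and Meis2 and Six3 their highest cerebellar values in libraries 2. Meis2 had 105, 189, 102 and 103 CPM in the cortex and 55.3, 81.4, 45.3 and 67.8 CPM in the hippocampus. With all libraries it was lower in the cerebellum than in the cortex by 2.54 ± 0.91 (log2, adjusted p = 0.043; 0.098 with replicate numbers as a block) and not called against the hippocampus (-1.56 ± 0.91, adjusted p = 0.19). Without the 3 libraries the differences were -4.68 ± 0.22 (adjusted p = 1.4e-07) and -3.93 ± 0.21 (adjusted p = 2.7e-07), and Meis2 was enriched in the cortex. Six3 had 0.178, 0.393, 0.671 and 0.551 CPM in the hippocampus. Its hippocampal level, without the 3 libraries, exceeded the cortical one by 2.7 ± 0.87 (adjusted p = 0.042). With all of them the difference was -0.02, and with replicate numbers as a block 0.60 ± 1.66. Nkx2-1, the homeobox factor of the medial ganglionic eminence, had 0 reads in the cerebellum, 0.268, 0.436, 0.587 and 0.472 CPM in the hippocampus, and in the cortex 2.23 CPM in knockout 2 against 0.0849 CPM in knockout 1 and 0 in both wild types. It was at least 22.7-fold higher in the hippocampus than in the cerebellum. Lhx9, Six3 and Nkx2-1 were, without the 3 libraries, specific to the hippocampus. For Six3 the lack of overlap rested on 0.178 CPM in knockout hippocampus 1 against 0.17 CPM in knockout cortex 1, with 4 reads in each. High values of Lhx9, Six3, Nkx2-1 and Meis2 helped to set the libraries apart, so the fits without these libraries do not test these members independently.

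Leaving out the 3 libraries, a choice made after seeing the members' own values, gave more members called between hippocampus and cortex than any other alternative run. The test then called 11 of 31 members (Emx1, Lhx1, Lhx5, Lhx9, Meis2, Nkx2-1, Nr2f1, Otx1, Pax2, Pax6 and Six3), 7 of them higher and 4 lower in the hippocampus, beside 20.5% of all genes tested. Without knockout cortex library 2 alone it called 7 members, beside 13.5% of all genes. Without all 3, against the cortex 16 members were higher and 12 lower in the cerebellum, with Lhx9 the added one, beside 24.1% and 26.7% of all genes (50.8% in either direction), and against the hippocampus 15 were higher and 15 lower, beside 27.1% and 29.2%.

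**Figure D4:**
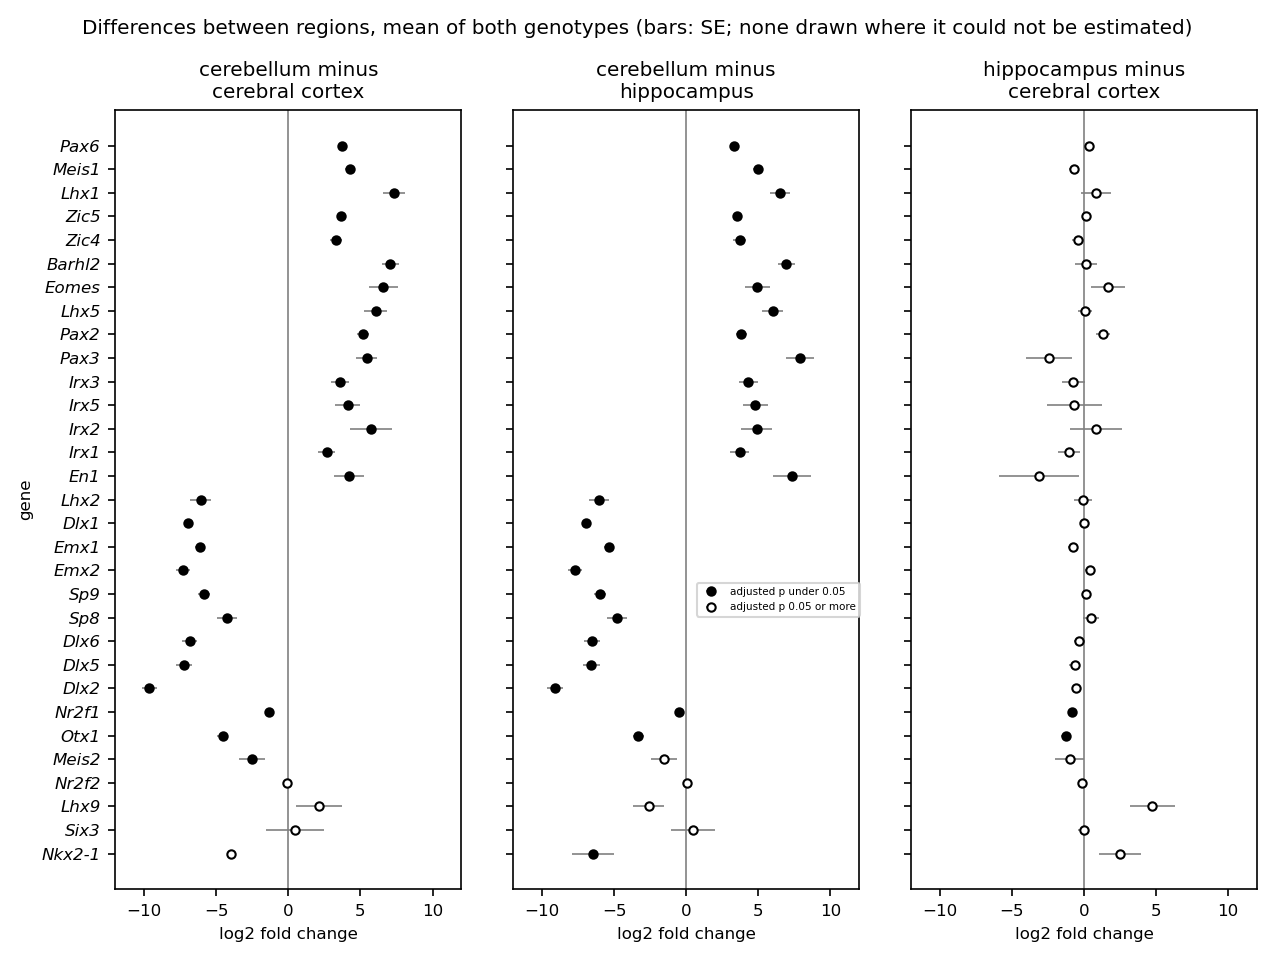
Log2 fold change of the 31 tested members between regions, as the mean of both genotypes with SE bars; filled points passed the test (adjusted p under 0.05) and no bar is drawn for Nkx2-1 in the left panel, where it could not be estimated. In the left and middle panels 27 filled points each lie on both sides of 0, and in the right panel Nr2f1 and Otx1 alone passed.

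The second question was whether the knockout differs from wild type in these factors. In the cerebellum no member was called by edgeR, beside 0.0% of all genes tested, and 3 of 31 members had an unadjusted p under 0.05, beside 3.18% of all genes. DESeq2 called 2 genes and no member. The 12 cerebellum-specific factors differed by -0.43 (Eomes) to 0.13 (Lhx1) on the log2 scale, with SEs of 0.18 to 0.81 and a median of -0.04, against -0.01 over all genes. Pax6, for example, had 122 ± 18.0 CPM in the knockouts and 124 ± 32.0 CPM in the wild types, and Lhx1 73.0 ± 11.6 and 66.8 ± 18.4 CPM (SD, n = 3 each).

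The 3 members with the smallest p-values in the cerebellum were forebrain factors that are nearly unread there, and their order rests on a few reads. Sp9 had 0, 1 and 0 reads in knockout 1 to 3 and 1, 6 and 4 reads in wild type 1 to 3, a wild-type to knockout ratio of 10.7 with an exact 95% counting interval of 1.56 to 463. Emx2 had 1, 1 and 0 reads against 3, 15 and 0, a ratio of 8.79 (2.11 to 78.1). Dlx1 went the other way, with 13, 6 and 7 reads in the knockouts against 6, 3 and 1, and a log2 difference of 1.39 ± 0.52. Its exons share 335 bases with the antisense gene Dlx1as, read at 2.89 CPM in the cerebellum. Without the strand of counting, part of these few Dlx1 reads may belong to Dlx1as. Wild-type library 2, one of the 3 that stood apart, held 15 of the 18 wild-type reads of Emx2 and 6 of the 11 of Sp9. The adjusted p was 1 for all 3 members. With the replicate numbers as a block, 104 genes (0.421%) were called in the cerebellum and again no member, with adjusted p-values of 0.54, 0.5 and 0.6 for Sp9, Emx2 and Dlx1.

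In the cortex the fitted knockout value lay above wild type for 25 of 31 members. Of the 31, 15 had an unadjusted p under 0.05 by edgeR, all 15 higher in the knockout, beside 7.39% of all genes in either direction, and none was called at an adjusted p under 0.05 (0.0% of all genes). DESeq2 called 1 member, Irx2, and 0.203% of all genes. The median log2 difference was 1.21 over the members and 0.02 over all genes. By role, 9 of the 12 midbrain, hindbrain and cerebellar factors were among the 15, as were 4 of the 10 ventral forebrain factors (Dlx5, Nkx2-1, Six3 and Meis1) and 2 of the 9 pallial ones (Lhx9 and Nr2f2). The smallest p-values belonged to Irx5, Lhx5 and Irx1, each with an adjusted p of 0.66. Irx5 had 0 reads in knockout 1 and 68 in knockout 2, against 1 and 0 in wild type 2 and 3. Lhx5 had 0 and 65 reads against 1 and 0. Their fitted log2 differences of 5.46 ± 1.60 (Irx5) and 5.41 ± 1.58 (Lhx5) depend on the prior count, and the ratios of CPM were 62.2 and 59.5, with exact 95% counting intervals of 10.8 to 2490 and 10.3 to 2390. Irx1 had 9 and 148 reads against 7 and 6, and a log2 difference of 3.27 ± 1.0. In each of them knockout 2 was high and knockout 1 lay with the wild types.

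Without knockout cortex library 2, where the knockout is 1 library assumed to vary like the other groups, none of the 31 members had an unadjusted p under 0.05, beside 2.43% of all genes, and their median log2 difference was 0.12. Irx1 was then at 0.61 ± 0.91 and Lhx1 at 0.14 ± 1.30. Without knockout cortex library 1, so that library 2 stood alone for the knockout, 13 members were called, all higher in the knockout, beside 11.7% of all genes: Barhl2, Dlx5, En1, Irx1, Irx2, Irx3, Irx5, Lhx1, Lhx5, Meis1, Nkx2-1, Nr2f2 and Pax2. With all libraries, the 9 forebrain factors that are low in the cerebellum differed between genotypes in the cortex by -0.18 (Lhx2) to 1.31 (Dlx5) on the log2 scale, with a median of 0.14.

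**Figure D5:**
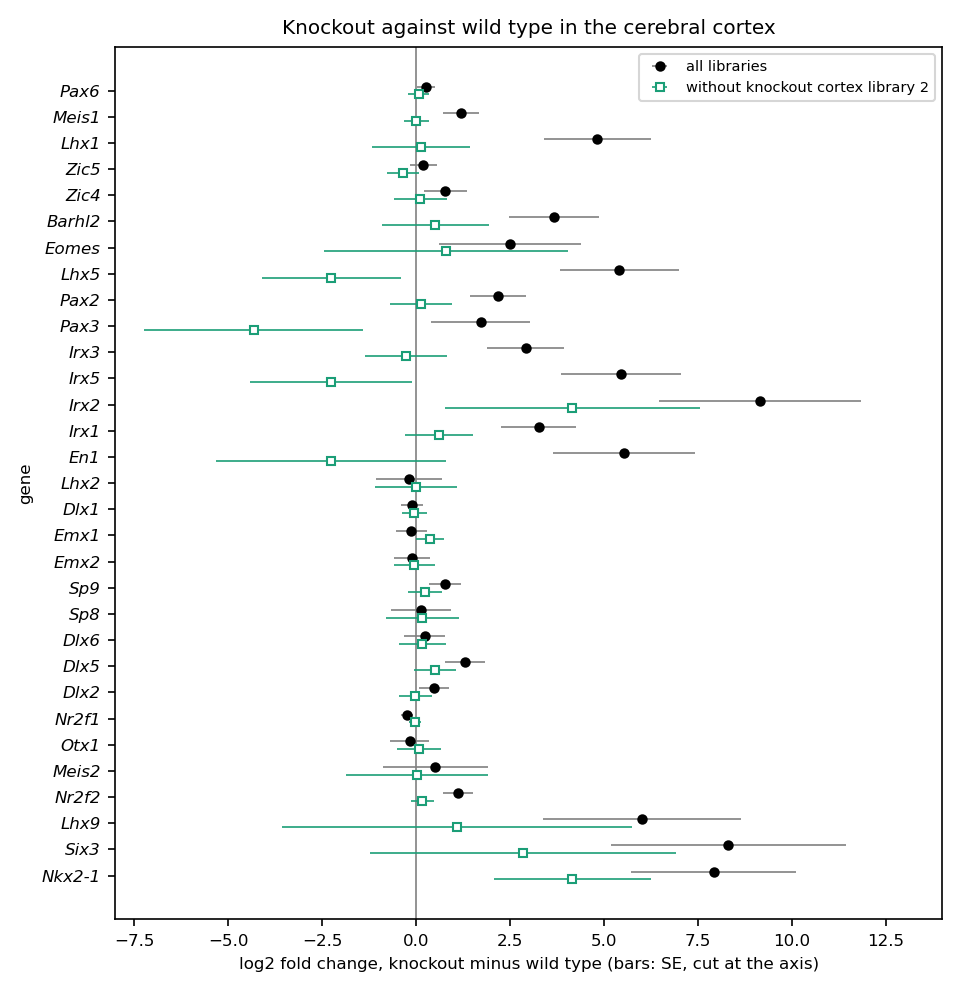
Knockout minus wild-type log2 fold change of the members in the cerebral cortex with SE bars, with all 4 libraries and without knockout library 2. With all libraries the median is 1.21 and the midbrain, hindbrain and cerebellar factors lie to the right of 0, and without library 2 the median is 0.12.

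In the hippocampus no member was called by edgeR or DESeq2 (0.0% of all genes by edgeR), and 0 of 31 had an unadjusted p under 0.05 by edgeR, beside 1.91% of all genes. DESeq2 gave 1 of 31 at that level, beside 1.78% of all genes. The median difference was 0.07 over the members and 0.0 over all genes. Pax3, with the smallest p, had 9 and 1 reads in knockout 1 and 2 and 0 in both wild types, which against a limit of 3 reads makes it at least 3.62-fold higher in the knockout, with an adjusted p of 1. Zic4 (0.85 ± 0.60) and Lhx1 (1.55 ± 1.15) came next on the log2 scale, and for Zic4 the libraries of the genotypes overlapped. Lhx1 had 1.29 and 1.35 CPM in the knockouts and 0.629 and 0.275 CPM in the wild types, without overlap. Cerebellar neuron markers also varied between these libraries, with sums of 316 and 261 CPM in knockout 1 and 2 and 233 and 177 CPM in wild type 2 and 3. One of them, Fat2, had 12.5, 7.68, 12.5 and 0.59 CPM in the same order. Wild type 3 was thus lowest in these markers and in Lhx1. The part of such marker reads in the Lhx1 levels was not tested. The 9 forebrain factors low in the cerebellum ranged from -0.38 (Dlx5) to 0.70 (Sp8), with a median of 0.05.

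Whether the genotype difference itself differed between regions was tested by interaction terms of the same fit. None passed for any member (0.0% of all genes in each of the 3 comparisons, by edgeR, and no member by DESeq2). For cerebellum against cortex, 15 members had an unadjusted p under 0.05, beside 5.3% of all genes. The smallest p-values there were those of Sp9 (-3.79 ± 0.98 on the log2 scale, adjusted p = 0.79), Lhx5 (-5.79 ± 1.73, adjusted p = 0.79) and Irx1 (-3.83 ± 1.19, adjusted p = 0.79). Against the hippocampus there were 3 in the cerebellum, beside 1.49%, namely Sp9 (-2.97 ± 0.99), Emx2 (-2.94 ± 1.2) and Dlx1 (1.43 ± 0.61), each with an adjusted p of 1, and between hippocampus and cortex there were 5, beside 3.17%, led by Irx5 (-7.54 ± 2.45), Nkx2-1 (-8.50 ± 2.66) and Pax2 (-2.40 ± 0.96), each with an adjusted p of 0.93. For Irx5, Nkx2-1, Lhx5, Sp9 and Emx2 these terms rest on groups with 0 to 2 reads, and so on the prior count of the fit. Over the 3 regions together, limma voom with libraries of 1 genotype and number as a random block called no member and no gene (0.0%), and 0 of 31 members had an unadjusted p under 0.05, beside 4.4% of all genes. DESeq2, which has no such block, gave 10 members at that level, 9 higher and 1 lower in the knockout, beside 5.77% of all genes. It called no member and 0.328% of all genes. The smallest p-values were those of Nr2f2 (0.43 ± 0.25), Lhx1 (1.63 ± 0.97) and Dlx1 (0.43 ± 0.28), with adjusted p-values of 1.

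Other patterning factors, outside the 33, were counted in the same contrasts. These lists were drawn up with results of the same data known. Of 29 further midbrain, hindbrain and cerebellar factors tested, 18 were higher and none lower in the cerebellum than in the cortex, beside 23.0% and 25.3% of all genes, with a median log2 difference of 3.53. Of these, En2, the second engrailed gene, had 79.5 ± 13.7 CPM (SD, n = 6) in the cerebellum against 1.08 ± 0.878 in the cortex and 1.03 ± 0.203 in the hippocampus (n = 4 each). Tfap2a, Hes3 and Neurod1 differed by 4.95, 5.59 and 4.39 on the log2 scale (adjusted p of 1.1e-08, 4e-08 and 5.2e-08). Of 28 other forebrain factors tested, 19 were lower and 3 higher in the cerebellum than in the cortex, beside the same 25.3% and 23.0%, with a median of -2.12. Neurod6, a basic helix-loop-helix factor of forebrain excitatory neurons, was specific to the hippocampus, at 232 ± 15.5 CPM (SD, n = 4) against 47.0 ± 5.54 in the cortex (n = 4) and 5.10 ± 0.539 in the cerebellum (n = 6). Between hippocampus and cortex, 5 of these 28 were higher and 6 lower, beside 5.49% and 6.48% of all genes.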

How the data were processed

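Total RNA of 14 brain libraries was sequenced. The authors deposited 1 table of whole-number read counts per gene. The submitters' processing notes name Trim Galore 0.6.4, cutadapt 2.10, the aligner STAR 2.7.3a, the counter featureCounts 2.0.1 and the build GRCm38.p6. Annotation release, strand setting and treatment of multi-mapping reads: not given in the sources used here. Symbols and coordinates came from GENCODE M21, in which 48058 identifiers (99.2%) matched with the version ignored.

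Genes were kept by filterByExpr over the 6 groups, leaving 24680, scaled by TMM and tested with the robust quasi-likelihood test of edgeR 4.0.16 (R 4.3.3), fitted to all 14 libraries. The region contrasts average both genotypes. The mean knockout effect over regions used limma 3.58.1 with voom, treating libraries of 1 genotype and number as a random block (statmod 1.5.0, correlation 0.096). Adjusted p-values are Benjamini-Hochberg values over all genes tested, with a threshold of 0.05. SEs of edgeR's fits were computed as the size of the log2 difference divided by the square root of the F statistic. They are unreliable where the difference is near 0. The scripts were tested on simulated data. CPM were computed from the deposited counts on TMM-scaled totals. A fold against a group with 0 reads is a bound against 3 reads over that group. Reads carry no molecular identifiers, so counting intervals and bounds cover counting error only. Alternatives were RLE size factors, DESeq2 1.42.0, limma voom, other filters on low counts, a replicate block, 1 region or 1 genotype alone, leaving out each library, and a log2 limit of 1 for the region classes.

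The 33 members, the other gene lists and the tests were chosen with earlier results of these data known. All members are named. Fold changes, or ratios of CPM where a group had 3 reads or fewer, are given for members specific to a region, and for the 3 smallest p-values of each genotype contrast. From the other lists, up to 4 called genes per direction and region contrast were eligible, by smallest p, with a log2 CPM of at least 1. Members at or near a threshold and those that changed without the 3 libraries were named after their values were seen.

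Cerebellar libraries carry the numbers 1 to 3 in both genotypes. Deviations from the group mean correlated at 0.29, 0.77 and 0.37 for the same number over 18919 genes, all over 0.1. The numbers were treated as pairs only in the replicate-block alternative, and the main test was unpaired. The crossed pair of knockout 3 and wild type 1 (0.46) exceeded same-number pairs 1 and 3. Knockout 1 and wild type 3 (0.36) exceeded same-number pair 1. These correlations thus do not show that numbers 1 and 3 are pairs. Cortex and hippocampus share only number 2 between genotypes.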

Additional observations from a re-analysis of the deposited data

How the results depend on the processing

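The cerebellar contrasts called 11941 genes against the cortex and 11676 against the hippocampus. In wild-type libraries alone they called 6968 and 7018 genes, in knockout libraries alone 7905 and 7109, where 9 and not 15 members were higher in the cerebellum than in the cortex. The hippocampus-cortex contrast called 2956 genes, and 1161 in wild type alone, 644 in knockout alone, 5224 without the 3 libraries that stood apart (chosen after seeing the data) and 1541 to 4143 with 1 library left out. Its members higher in the hippocampus numbered 0, but 1 with DESeq2, 1 in wild type alone, 7 without the 3 libraries and 0 to 4 with 1 library left out. Those lower numbered 2, but 1 with the replicate block, 1 in wild type alone, 0 in knockout alone, 4 without the 3 libraries and 1 to 3 with 1 left out. Members specific to the cortex numbered 0, but 1 (Otx1) at a log2 limit of 1. Those specific to the hippocampus numbered 0, but 3 without the 3 libraries and 0 to 1 with 1 library left out. In knockout libraries alone En1, Irx1, Irx2, Irx3, Irx5 and Lhx5 took no order.

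The genotype contrasts called 0 genes. In the cerebellum the count was 2 with DESeq2, 104 with the replicate block, 1 without the 3 libraries and 0 to 1 with 1 left out. In the cortex it was 50 with DESeq2, 1 with no filter and 0 to 3005 with 1 left out, with 1 member higher by DESeq2 and 0 to 13 with 1 left out. In the hippocampus it was 2 with DESeq2, 7 in a fit to that region alone and 3 without the 3 libraries. For the mean effect it was 81 with DESeq2, 2 with limma voom without a block, 3 with no filter, 1 with no replicate block in edgeR's quasi-likelihood test, 22 without the 3 libraries and 0 to 85 with 1 left out. The interaction of cerebellum and cortex called 0 to 1551 genes and 0 to 12 members as lower with 1 left out, and that of hippocampus and cortex 0 to 760 genes and 0 to 6 members. The highest of these counts in the cortex and both interactions came without knockout cortex library 1. The cause was not tested.

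Sign changes were checked for the results printed per member, and several more members changed sign with 1 library left out: without knockout cortex library 2 the members with a positive value went from 25 to 20 of 31 for the knockout effect in the cortex, from 14 to 20 between hippocampus and cortex, from 2 to 9 for the cerebellum-cortex interaction and from 10 to 18 for the hippocampus-cortex interaction. The hippocampus-minus-cortex value of Six3, -0.02, was 0.68 with limma voom, 0.60 with the replicate block, 4.68 in wild type alone, 2.71 without knockout cortex 2, 1.12 without wild-type cortex 3, 0.21 without knockout hippocampus 1, 0.05 without wild-type hippocampus 3 and 2.7 without the 3 libraries, with a range of -0.50 to 2.71 over the libraries left out in turn. Its cerebellum-minus-hippocampus value, 0.48, was -1.52 with limma voom, -1.24 without knockout cerebellum 2, -2.27 without wild-type cerebellum 2 and -3.97 without the 3 libraries, with a range of -2.27 to 0.81. Without knockout cortex 2 and without the 3 libraries, the knockout effect in the cortex was -2.26 and -2.22 for Lhx5 (5.41 with all libraries) and for Irx5 (5.46), the cerebellum-cortex interaction of Lhx5 was 1.88 and 1.96 (-5.79 with all), and the hippocampus-cortex interaction of Irx5 0.18 and 0.15 (-7.54 with all). Over all libraries left out in turn these 4 values ranged from -2.26 to 7.71 and 7.76, from -8.09 to 1.88 and from -9.84 to 0.18. Members under about 0.1 CPM rest on single reads, so differences between genotypes were not detectable at this depth there.

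Pairing the cerebellar libraries by number, as a replicate block, called no member in the genotype contrast. Blocking all 14 libraries by genotype number called 26 members against the cortex in place of 27 (Meis2 lost) and changed no other member's call than that of Otx1. Libraries of different regions with the same genotype and number correlated from -0.09 to 0.42, so this block rests on shared numbers alone.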

Other observations

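The organisers of the embryonic brain act through secreted signals, their receptors and inhibitors. Of 29 tested in this list, 5 were higher and 10 lower in the cerebellum than in the cortex, with a median log2 difference of -0.42, beside 23.0% and 25.3% of all genes. Ptch1, the Hedgehog receptor, had 258 ± 13.8 CPM (SD, n = 6) in the cerebellum, 105 ± 41.1 in the cortex and 78.3 ± 7.35 in the hippocampus (n = 4 each). Wnt3, a Wnt ligand, was specific to the cerebellum, at 14.6 ± 1.51, 3.33 ± 2.62 and 2.98 ± 0.891 CPM. Rspo1, a secreted enhancer of Wnt signalling, was specific to the cortex, at 10.6 ± 3.86 CPM against 0.252 ± 0.263 in the cerebellum and 0.533 ± 0.178 in the hippocampus. Its relative Rspo2 was read in both forebrain regions (10.6 ± 1.42 and 12.6 ± 3.79 CPM) and little in the cerebellum (0.911 ± 0.370 CPM). Between hippocampus and cortex 1 of the 29 was higher (Fgfr1, a receptor of fibroblast growth factors, by 1.28 on the log2 scale) and 8 were lower, beside 5.49% and 6.48% of all genes.

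Of 15 diencephalic factors, 9 were tested. In the cerebellum 2 were higher and 0 lower than in the cortex, beside 23.0% and 25.3% of all genes, with a median log2 difference of 0.96. Barhl1, the paralog of Barhl2, was specific to the cerebellum, at 10.9 ± 1.16 CPM (SD, n = 6) against 1.04 ± 0.864 in the cortex and 0.606 ± 0.135 in the hippocampus (n = 4 each). Foxp2, a forkhead factor of deep-layer cortical and Purkinje neurons, was lower in the hippocampus (4.40 ± 2.81 CPM) than in the cortex (22.4 ± 13.8 CPM), with a log2 difference of -2.33 and an adjusted p of 0.0068 by edgeR. Cortical means and SDs of genes outside the members include knockout cortex library 2, and values without it are not given for them.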
